A study of Mus musculus with 6 samples.

Results

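Macrophages settle in the fetal testis while it forms, and in mouse they lie mainly in the interstitium and around its vessels. They depend on signalling through the CSF1 receptor, clear dying cells through scavenger and complement receptors, and signal through adaptor proteins that carry an immunoreceptor tyrosine-based activation motif (ITAM). The macrophage markers described here are 10 genes: Csf1r, Adgre1, Mrc1, Cx3cr1, C1qa, C1qb, C1qc, Tyrobp, Fcer1g and Pf4. Every probe set annotated with exactly 1 gene symbol equal to one of these names was taken, which gave 15 probe sets of the 45101 on the array. Of these, 14 had a mean log2 intensity of at least 4 over the 6 arrays and were tested, and all 10 genes kept at least 1 tested probe set.

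RNA of whole embryonic mouse gonads, taken at E13.5 when testis cords have formed, was measured on 1 oligonucleotide array per sample, 3 Dmrt1 null and 3 control testes. Dmrt1 encodes a DM domain transcription factor of Sertoli cells and germ cells. The null samples are homozygous null for Dmrt1 by title, description and the design text, whereas their genotype entry reads Dmrt(flox/flox). No Cre line is named in the labels. The controls are called wild type in their titles and Dmrt1 heterozygous in their descriptions and genotype entries. Both groups were outcrossed to 129S6/SvEvTac, and the design text says that the null animals often form teratomas. The labels call the samples biological replicates and do not say whether gonads of several embryos were pooled. The serial number that ends each description is lower for every null sample than for every control sample, so anything that followed that number cannot be told apart from the genotype. The Dmrt1 probe set gave 48.4, 26.9 and 23.8 in null replicates 1, 2 and 3, against 696, 1030 and 796 in control replicates 1, 2 and 3, as the labels state. Array medians were 14.6 to 14.8, and the number of arrays limits the precision of every comparison below. A measure of RNA quality, the 3' over 5' signal ratio of Actb, was highest in null replicate 3, at 2.75, and lay between 1.91 and 2.15 elsewhere.

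No macrophage marker passed the test between null and control testes. The design asks how gene expression in the fetal testis differs without Dmrt1, and for these genes the estimates were small, between -0.54 for Mrc1 and 0.16 for Pf4 as log2 differences of null minus control. Differences were below 0 for 9 of 10 genes, taking the brightest tested probe set of each, with a median of -0.25, against a median of 0.03 over all 11874 genes tested, of which 43.7% were below 0. In limma, 0 of 14 tested probe sets had a Benjamini-Hochberg adjusted p under 0.05, where 0.0272% of all 22082 tested probe sets were called lower and 0% higher. At an unadjusted p under 0.05, limma gave 2 of 14 probe sets, those of Mrc1 and Adgre1, both lower, against 3.28% of all tested probe sets lower and 2.75% higher. The null and control values did not overlap for 3 of 10 genes, Mrc1, Adgre1 and Cx3cr1, all lower in null testes, against 5.32% of all genes lower and 7.8% higher.

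The shift leaned on a single array. By the brightest probe set, control replicate 3 held the highest value of 8 of 10 macrophage markers, whereas it held the highest value of 9.36% of all genes. The other C1qb probe sets were highest in null replicate 1, and the dimmest Csf1r probe set in null replicate 3. Without control replicate 3, the median difference was -0.16 and 7 of 10 genes were below 0. Csf1r and Tyrobp then changed sign to 0.09 and 0.24. Mrc1, Adgre1 and Cx3cr1 were still lower in null testes without overlap in that setting, where 8.02% of all genes were. The mean centred level over the 10 genes, each array's log2 value less the 6-array mean, was -0.080, -0.163 and -0.093 in null replicates 1, 2 and 3, against -0.035, 0.024 and 0.346 in control replicates 1, 2 and 3. In bulk tissue, fewer macrophages and less RNA per macrophage cannot be told apart. A linear fold change between null and control testes was bounded for every marker. The low ends of the 95% confidence intervals lay between 1.13-fold lower, for Pf4, and 1.87-fold lower, for Mrc1, and no interval reached beyond 1.47-fold higher, each for 1 gene and without adjustment over genes.

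**Figure D1:**
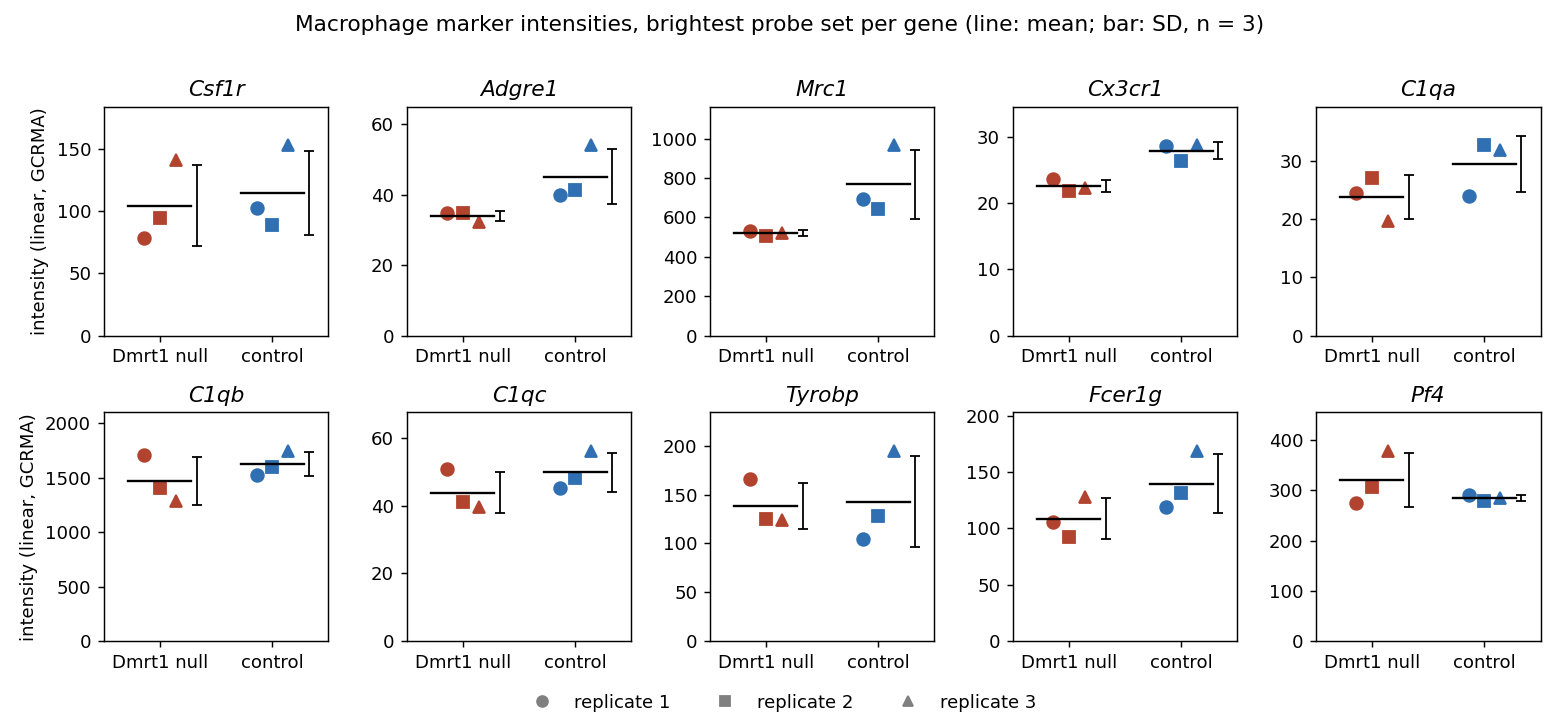
Intensity on a linear scale of the brightest probe set of each macrophage marker in 3 Dmrt1 null (red) and 3 control (blue) testes; symbols are replicates, lines are means and bars are SD. Mrc1, Adgre1 and Cx3cr1 separate the groups, and control replicate 3 is the highest array for 8 of 10 genes.

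Among the surface receptors that take up ligands or mark mature macrophages, Mrc1 and Adgre1 had the smallest p of all members. Mrc1, the mannose receptor, binds and internalises glycoproteins and is carried by tissue macrophages and also by some endothelial cells. Its intensities were 533, 505 and 522 in null replicates 1, 2 and 3, against 692, 642 and 968 in control replicates 1, 2 and 3. The null arrays lay within a narrow range, all below the lowest control, and control replicate 3 stood above the other controls. Mrc1 averaged 520 ± 14.1 in null testes and 767 ± 176 in control testes (SD, n = 3 each). It was 1.45-fold lower in null testes (95% confidence interval 1.13 to 1.87), or -0.54 on the log2 scale (standard error 0.16, limma adjusted p = 0.773). By p, it ranked 214 among 22082 tested probe sets. Without control replicate 3 the difference of Mrc1 was -0.36.

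Adgre1 encodes F4/80, an adhesion G protein-coupled receptor used as the standard surface marker of mouse macrophages. Its intensities were 34.9, 34.7 and 32.3 in null replicates 1, 2 and 3, against 40.0, 41.2 and 54.1 in control replicates 1, 2 and 3. The groups did not overlap, and here too the spread was wider among controls. The log2 difference was -0.40 (standard error 0.17, limma adjusted p = 0.773), and -0.26 without control replicate 3. Adgre1 and Mrc1 had nearly the same profile, with a Pearson r of 0.98 over the 6 arrays, the highest of the 45 pairs of member genes. Correlations given here are descriptions over 6 arrays that share the RNA extract and the normalization of each array.

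The receptors for growth factor and chemokine signals differed from each other. Csf1r is the receptor for CSF1 and IL-34 and is needed for the survival of most tissue macrophages. Its brightest probe set gave 78.1, 94.0 and 141 in null replicates 1, 2 and 3, against 102, 89.0 and 153 in control replicates 1, 2 and 3. The highest null and the highest control were close to each other, and the groups overlapped fully. The log2 difference was -0.14 (standard error 0.27, limma adjusted p = 0.920), and the other Csf1r probe sets had differences of -0.15 and -0.14. In all 3 probe sets null replicate 3 was the highest null array. Leaving out null replicate 1 gave a Csf1r difference of 0.05.

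Cx3cr1 is the receptor for the membrane-bound chemokine CX3CL1 and marks macrophages and microglia of early embryonic origin. It gave 23.6, 21.9 and 22.3 in null replicates 1, 2 and 3, against 28.6, 26.4 and 28.8 in control replicates 1, 2 and 3. The groups were apart, with the smallest spread within controls among the 3 separated genes relative to level. The log2 difference was -0.31 (standard error 0.14, limma adjusted p = 0.773). This probe set lay close to the array medians, where the background correction weighs on a fold, and 16 added to every intensity gave a difference of -0.19. The other Cx3cr1 probe set, 5.75 to 8.32 in null testes and 6.55 to 7.90 in control testes, was below the filter and was not tested.

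The ligands of these receptors showed no matching pattern. Csf1 gave 42.4, 32.6 and 39.2 in null replicates 1, 2 and 3, against 39.2, 43.2 and 42 in control replicates 1, 2 and 3, and its log2 difference was -0.13 (limma adjusted p = 0.876). Cx3cl1 had a difference of 0.21 (limma adjusted p = 0.870). Il34 lay below the filter, at 6.56 to 6.98 in null testes and 6.49 to 7.21 in control testes.

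Tyrobp and Fcer1g encode small transmembrane adaptors that carry an ITAM and pass signals from activating receptors to the kinase SYK. Tyrobp, also called DAP12, pairs with TREM2 among other receptors. It gave 166, 125 and 124 in null replicates 1, 2 and 3, against 105, 128 and 195 in control replicates 1, 2 and 3. The controls held both the lowest and the highest array, so the groups could not be set apart. Its log2 difference was -0.01 with a 95% confidence interval of -0.57 to 0.55 (limma adjusted p = 0.996).

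Fcer1g, the common gamma chain of Fc receptors, gave 106, 92.1 and 128 in null replicates 1, 2 and 3, against 119, 131 and 169 in control replicates 1, 2 and 3. Only null replicate 3 reached into the control range. The log2 difference of Fcer1g was -0.36 with a standard error of 0.19 (limma adjusted p = 0.774), and -0.21 without control replicate 3. Across the 6 arrays its r was 0.85 with Mrc1 and 0.48 with Tyrobp, the other adaptor.

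Of 24 other genes fixed as ITAM signalling partners, 22 were on the array with a single symbol and 6 passed the filter. None of the 6 was called by limma or had an unadjusted p under 0.05. Syk, the kinase that binds the phosphorylated motif, had the smallest p, with 50.7, 63.9 and 48.1 in null replicates 1, 2 and 3, against 47.1, 42.9 and 41.4 in control replicates 1, 2 and 3. Its values did not overlap and were higher in null testes, a log2 difference of 0.30 (limma adjusted p = 0.774). The Fc receptors Fcgr2b, Fcgr1 and Fcgr3, of which the activating ones signal through the gamma chain, had differences of -0.43, -0.25 and -0.21. Plcg2 and Inpp5d were at 0.39 and 0.11. Of the 6 genes, 3 were thus below 0 and 3 above, with a median of -0.05. Trem2 lay below the filter, at 9.25 to 9.90 in null testes and 10.1 to 10.8 in control testes.

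**Figure D2:**
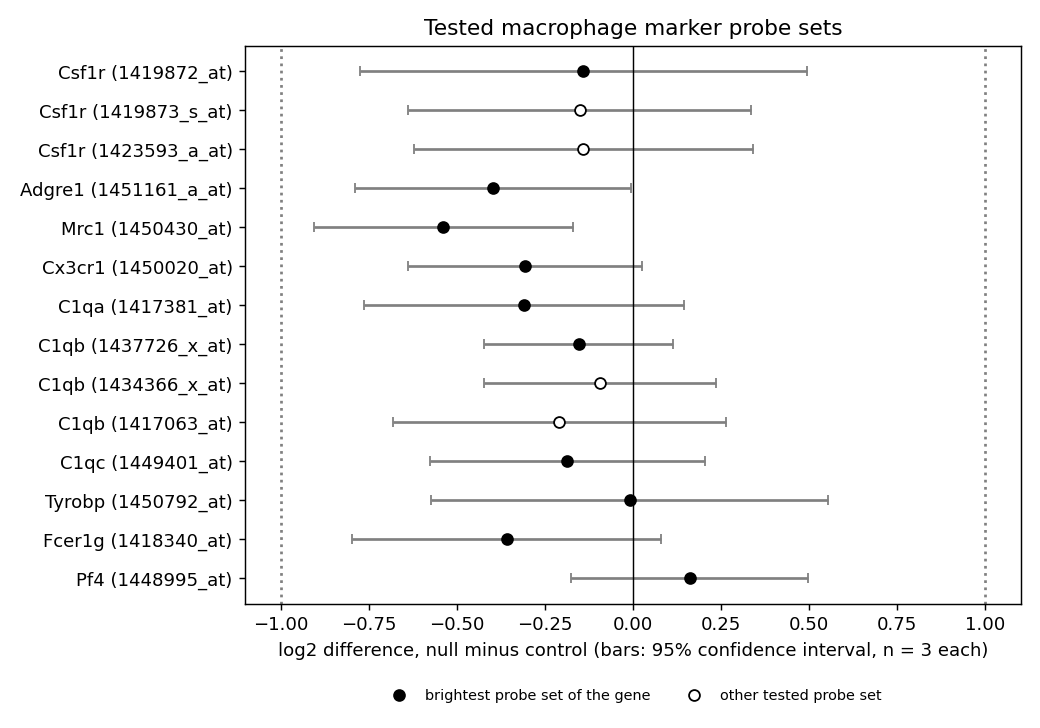
Log2 difference of null minus control for the 14 tested macrophage marker probe sets, with 95% confidence intervals; filled points are the brightest probe set of each gene and dotted lines mark a difference of 1 in either direction. The intervals of Mrc1 and Adgre1 lie below 0, and all 14 stay within the dotted lines.

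C1qa, C1qb and C1qc encode the A, B and C chains of C1q, the subunit that starts the classical complement pathway and tags dying cells and debris for uptake; macrophages are its main source. RefSeq lists the genes next to each other among protein-coding genes of chromosome 4, in the order C1qb, C1qc, C1qa. The RefSeq table of promoter windows, 250 bases before to 50 after the start site on GRCm38.p6, held 6 of the 10 macrophage markers: C1qb, C1qc, Mrc1, Fcer1g, Pf4 and Cx3cr1. The windows of C1qb and C1qc are shown because the brightest probe sets of these neighbours followed each other across the arrays. That of Mrc1 is shown because it had the largest difference. Capitals mark GAGGAA, the core bound by the myeloid factor PU.1 (Spi1), or TGCTGA, a recognition element of MAF factors, on either strand, as TTCCTC or TCAGCA on the strand printed.
C1qb, chr4:136886151-136886450, minus strand: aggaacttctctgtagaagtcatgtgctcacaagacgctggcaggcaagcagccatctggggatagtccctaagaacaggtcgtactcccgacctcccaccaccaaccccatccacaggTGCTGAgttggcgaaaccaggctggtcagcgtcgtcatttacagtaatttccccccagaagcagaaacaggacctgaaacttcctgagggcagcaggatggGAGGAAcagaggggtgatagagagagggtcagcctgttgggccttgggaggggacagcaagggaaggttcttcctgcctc
C1qc, chr4:136892865-136893164, minus strand: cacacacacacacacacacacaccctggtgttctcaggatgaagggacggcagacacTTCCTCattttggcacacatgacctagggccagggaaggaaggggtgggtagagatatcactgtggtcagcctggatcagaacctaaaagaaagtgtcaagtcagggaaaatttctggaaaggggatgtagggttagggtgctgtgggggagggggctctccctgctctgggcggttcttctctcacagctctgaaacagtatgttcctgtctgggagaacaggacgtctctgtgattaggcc
Mrc1, chr2:14229164-14229463, plus strand: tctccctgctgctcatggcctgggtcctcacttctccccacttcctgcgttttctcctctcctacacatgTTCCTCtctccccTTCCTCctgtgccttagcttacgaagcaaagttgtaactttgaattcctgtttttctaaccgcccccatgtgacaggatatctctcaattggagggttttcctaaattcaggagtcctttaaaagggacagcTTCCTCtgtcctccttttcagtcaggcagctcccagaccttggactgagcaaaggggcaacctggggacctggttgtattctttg
GAGGAA was found in 4 of the 6 windows, those of C1qb, C1qc, Mrc1 and Pf4, and in 28.3% of all 32851 promoter windows. Mrc1 held 3 matches and the other windows with a match held 1 each. TGCTGA was found in C1qb alone of the 6, and in 19.5% of all windows. ACATTGT, a core of the element bound by DMRT1, was found in 0 of 6 windows on either strand, and in 2.96% of all windows. No matches overlapped each other in these windows, and a match or its absence describes these letters only.

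None of the C1q genes was called between the groups, and the brightest C1qb probe set and C1qc followed each other closely from array to array. The brightest C1qb probe set gave 1710, 1410 and 1290 in null replicates 1, 2 and 3, against 1530, 1600 and 1750 in control replicates 1, 2 and 3. C1qc gave 50.8, 41.0 and 39.7 in null replicates 1, 2 and 3, against 45.1, 48.0 and 56.2 in control replicates 1, 2 and 3. For both genes null replicate 1 lay among the higher arrays, with only control replicate 3 above it. C1qa gave 24.6, 27.1 and 19.8 in null replicates 1, 2 and 3, against 24.0, 32.8 and 31.9 in control replicates 1, 2 and 3. In all 3 C1q genes and all 5 of their probe sets, null replicate 3 was the lowest array. Log2 differences were -0.31 for C1qa, -0.15 for C1qb and -0.19 for C1qc, with standard errors of 0.20, 0.12 and 0.17 and limma adjusted p of 0.785, 0.809 and 0.831. The other C1qb probe sets had differences of -0.09 and -0.21, and the brighter ones end in _x_at, a design that can cross-hybridise to similar transcripts.

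The brightest C1qb probe set and C1qc had an r of 0.97 over the 6 arrays. C1qa had an r of 0.67 with that C1qb probe set and 0.65 with C1qc. The other _x_at probe set of C1qb had an r of 0.88 with C1qc and 0.75 with C1qa. For the dimmest C1qb probe set these were 0.74 and 0.79, so the closer match of C1qb with C1qc was not seen there. Against the brightest Csf1r probe set the same genes had r values of -0.11 for C1qa, -0.20 for C1qb and 0.05 for C1qc. The other Csf1r probe sets gave -0.11, 0.32 and 0.48, and -0.32, -0.28 and -0.07, in the same order. With Adgre1, r was 0.74 for C1qa, 0.70 for C1qb and 0.80 for C1qc. The median r was 0.67 within C1q and 0.58 over the 21 pairs of a C1q gene with another member. The mean centred level of the C1q genes was 0.061, -0.088 and -0.297 in null replicates 1, 2 and 3, against -0.062, 0.140 and 0.246 in control replicates 1, 2 and 3. Null replicate 3, the lowest array, is also the one with the highest Actb 3' to 5' ratio, and without it the differences were -0.18 for C1qa, -0.06 for C1qb and -0.12 for C1qc. Without null replicate 1 they were larger for C1qb, at -0.27 (limma unadjusted p = 0.0266), and for C1qc, at -0.30, and without control replicate 3 C1qc was at -0.095. The C1qa probe set was about as dim as that of Cx3cr1, and 16 added to every intensity gave -0.19. The part of RNA quality in these levels was not tested.

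Of 18 further complement genes fixed as a list, 11 were tested and 0 were called by limma. C5ar1, a receptor for the complement fragment C5a, had the smallest p, with 72.7, 104 and 60.1 in null replicates 1, 2 and 3, against 104, 132 and 118 in control replicates 1, 2 and 3. Its log2 difference was -0.61 (limma adjusted p = 0.773), and 1 array of each group met at 104. C3ar1, the receptor for C3a, had a difference of -0.58. C1ra and C1s1, the proteases that C1q activates, had differences of -0.04 and -0.10. Differences were above 0 for 6 of the 11 genes, among them Lrp1 at 0.17, Cfp at 0.17 and Serping1 at 0.11, and below 0 for 5, with a median of 0.00.

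**Figure D3:**
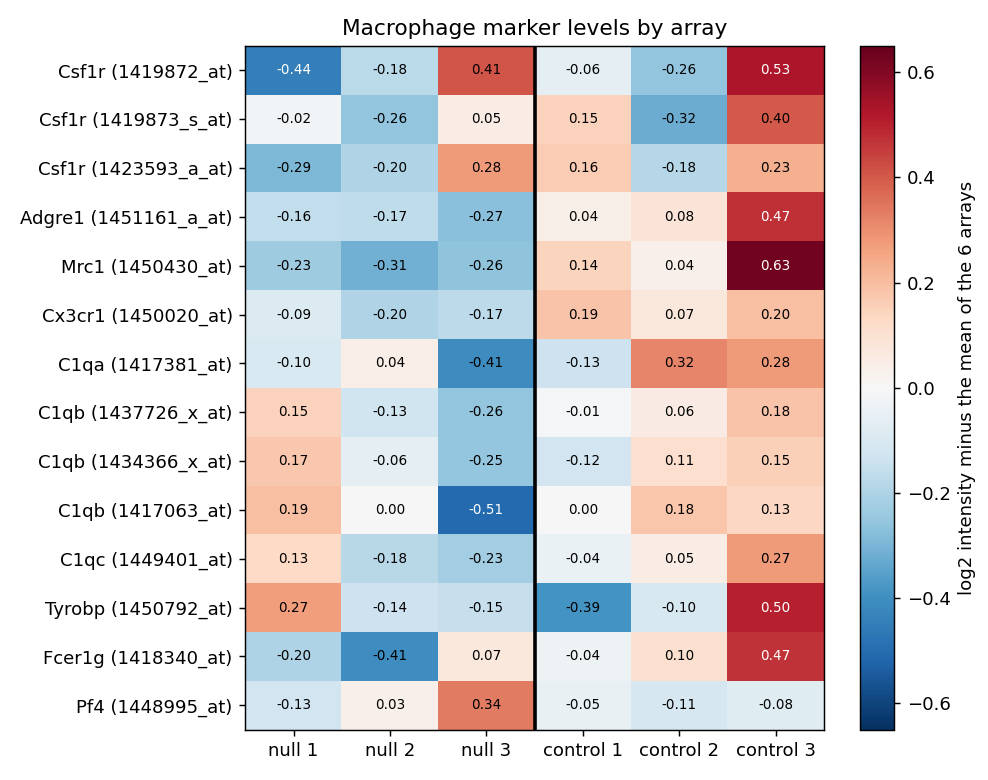
Centred log2 level (each array's value less the 6-array mean) for the 14 tested probe sets (rows) in null and control testes (columns, split by the line); red is above and blue below the mean. Control replicate 3 is red in all rows except Pf4, and null replicate 3 is lowest in every C1q row.

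Pf4, a CXC chemokine stored in platelets and also made by fetal and tissue macrophages, was the marker with a difference above 0. It gave 275, 307 and 379 in null replicates 1, 2 and 3, against 290, 278 and 284 in control replicates 1, 2 and 3. The controls were close together, and null replicate 3 stood above all other arrays. The log2 difference was 0.16 with a 95% confidence interval of -0.17 to 0.50 (limma adjusted p = 0.830), and 0.03 without null replicate 3. Its r over the 6 arrays was -0.73 with C1qa, -0.89 with C1qb and -0.75 with C1qc, but 0.53 with Csf1r and -0.04 with Fcer1g, and it was below 0 with 8 of the 9 other members.

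Platelet and blood genes were looked at beside Pf4 because platelets carry its transcript. Of 14 platelet and megakaryocyte genes listed, 12 were on the array and 4 were tested, and 8 lay below the filter, among them Itga2b, Gp9 and Gp6. Ppbp, the neighbouring platelet chemokine, was at 5.03, 10.5 and 23.2 in null replicates 1, 2 and 3, against 21.8, 7.21 and 6.56 in control replicates 1, 2 and 3. Clec1b, a platelet receptor, gave 40.9, 75.5 and 121 in null replicates 1, 2 and 3, against 86.4, 15.7 and 43.1 in control replicates 1, 2 and 3. Both were high in null replicate 3 and also in control replicate 1, where Pf4 was at 290. Over the 6 arrays Pf4 had an r of 0.79 with the median of the 4 tested platelet genes, 0.90 with that of the monocyte and granulocyte genes and 0.59 with that of the erythroid genes. Values of that size were not limited to blood lists. They were 0.62 with the endothelial median, 0.82 with that of the ligands Csf1 and Cx3cl1 and -0.82 with that of the microglia genes. Itgb3, the platelet and macrophage integrin beta chain, had a difference of -0.53 (limma adjusted p = 0.773) and no overlap. The summed intensity of the 4 tested genes was 5819 to 6067 in null testes and 5763 to 6536 in control testes, nearly all of it from Rap1b, which many cell types express. Without Rap1b, left out after its level was seen, Clec1b, Itgb3 and Vwf summed to 118.7, 156.6 and 216.2 in null replicates 1, 2 and 3, against 176.1, 102.8 and 136.3 in control replicates 1, 2 and 3. The part of blood cells in the Pf4 level was not tested.

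The label of macrophage markers was checked against other leukocyte genes. Of 26 further macrophage and pan-leukocyte genes, 25 were on the array and 17 were tested. Cd68, a lysosomal protein of macrophages, gave 23.1, 24.8 and 20.3 in null replicates 1, 2 and 3, against 23.9, 31.4 and 30.1 in control replicates 1, 2 and 3. Ptprc, the CD45 antigen of all leukocytes, gave 12.3, 13.4 and 18.3 in null replicates 1, 2 and 3, against 19.5, 15.5 and 21.6 in control replicates 1, 2 and 3, close to the array medians. Other defining genes were near or below those medians in every array. Spi1, which encodes PU.1, was at 10.5 to 12.9 in null testes and 12.9 to 13.2 in control testes, and Itgam, the CD11b antigen, at 4.06 to 4.63 in null testes and 3.86 to 4.87 in control testes. Cd163 and Timd4, receptors of resident macrophages, were below 6 in all arrays. The members and genes such as Ctss and Laptm5 were above the array medians in every array, except for Cx3cr1 in its untested probe set, while Spi1 and Itgam were below them in every array.

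Among the 17 tested macrophage and pan-leukocyte genes, 0 were called by limma, 11 had differences below 0 and 6 above, and the median was -0.08. At an unadjusted p under 0.05 there were 2 lower and 1 higher, against 3.01% and 3.44% of all genes. Cd53, a leukocyte tetraspanin, gave 195, 221 and 163 in null replicates 1, 2 and 3, against 243, 290 and 345 in control replicates 1, 2 and 3, a log2 difference of -0.60 (limma adjusted p = 0.773). Mpeg1, the pore-forming perforin-2 of macrophages, had a difference of -0.41, and its groups did not overlap, as those of Cd53 did not. Cyba, a subunit of the phagocyte oxidase that many other cells also express, was the higher gene at that p, with 561, 566 and 634 in null replicates 1, 2 and 3, against 448, 422 and 463 in control replicates 1, 2 and 3. Its log2 difference was 0.40 (limma adjusted p = 0.773), and its groups did not overlap either. Of the 17 genes, 3 were lower and 1 higher without overlap, against 5.32% and 7.8% of all genes. The median centred level of the 17 was -0.086, -0.044 and 0.082 in null replicates 1, 2 and 3, against -0.083, -0.040 and 0.250 in control replicates 1, 2 and 3, so control replicate 3 was the highest array here as well.

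Genes of resident and scavenging macrophages gave a similar picture. Of 25 listed, 15 were tested, 12 had differences below 0 and 3 above, and the median was -0.13, with 0 called by limma. Lgmn, a lysosomal protease, gave 144, 110 and 77.1 in null replicates 1, 2 and 3, against 173, 182 and 146 in control replicates 1, 2 and 3, a log2 difference of -0.64 (limma adjusted p = 0.773). Hmox1, the heme-degrading enzyme, had a difference of -0.28, again without overlap. Of the 15 genes, 2 were lower and 0 higher without overlap, against 5.32% and 7.8% of all genes. Among 13 myeloid transcription factors, 11 were tested and 0 were called; Runx1 had the smallest p, with a difference of -0.44, and Irf8 had 0.51. Of 13 chemoattractants and growth factors, 6 were tested and 0 were called by limma. Of the 6, 4 had differences below 0 and 2 above, and the median was -0.11. Ccl12, a monocyte chemokine, had the smallest p, at -0.70 (limma adjusted p = 0.773), while Ccl6 was at 0.28.

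Markers of other leukocytes were mostly below the filter. Of 15 lymphocyte and NK genes 2 were tested, of 10 mast cell genes 3, of 9 microglia genes 3 and of 16 monocyte and granulocyte genes 5, and limma called 0 in each list. The genes with the smallest p were Cd247 at -0.26, Gata2 at -0.09, Olfml3 at 0.24 and Camp at 0.52. Of these, only Olfml3 had groups that did not overlap, with higher values in null testes. The other tested microglia genes, Sall1 and Tmem119, were at -0.38 and -0.19, and the other tested mast cell genes, Hdc and Kit, at 0.06 and 0.08. Mast cell proteases Cma1 and Mcpt4 were below 5 in all arrays. The single tested gene of the MHC class II list, H2-Aa, was called lower, with 10.7, 7.66 and 7.13 in null replicates 1, 2 and 3, against 33.3, 44.9 and 40.8 in control replicates 1, 2 and 3 (limma adjusted p = 0.0334). It passed the filter through its control level, and its probe set ends in _x_at. Other class II chains lay below the filter. H2-Ab1 was at 10.1 to 11.1 in null testes and 11.7 to 12.6 in control testes. H2-Eb1 was at 7.8 to 10.6 in null testes and 7.33 to 10.7 in control testes. Cd74, the invariant chain that accompanies class II molecules, was at 12.7 to 16.4 in null testes and 12.2 to 18.5 in control testes.

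Markers of other testis cells also varied between arrays, and some macrophage markers followed them. The 15 endothelial genes, all tested, had median centred levels of -0.503, 0.249 and 0.543 in null replicates 1, 2 and 3, against 0.349, -1.11 and 0.234 in control replicates 1, 2 and 3. Mrc1, which some endothelial cells carry, had an r of 0.05 with that median, and Csf1r one of 0.65. Summed endothelial intensities were 2725 to 5003 in null testes and 1792 to 4441 in control testes. The 5 tested fetal Leydig genes, of steroid hormone synthesis, had levels of 1.07, -0.584 and -1.32 in null replicates 1, 2 and 3, against -0.671, 0.74 and 0.69 in control replicates 1, 2 and 3. The arrays with high Leydig levels, null replicate 1 and control replicates 2 and 3, were also those with C1q levels above their mean, and r was 0.89 between both profiles. C1qb had an r of 0.92, C1qc 0.86 and Pf4 -0.83 with the Leydig median, and Tyrobp had -0.94 with the Sertoli median. These were the largest in size of the members with each median. The Sertoli median hardly varied, between -0.0457 and 0.0377 over the 6 arrays, so the r of Tyrobp rests on very small differences. No gene of the endothelial, Leydig, erythroid, germ cell or mesonephros lists was called by limma, a count of 0 in each, and the genes with the smallest p were Egfl7 at 0.58, Cyp17a1 at -0.62, Hbb-bh1 at 0.99, Tfap2c at 1.00 and Lhx1 at -0.24. Piwil2 at -0.60 and Tdrd5 at -1.42, of the germ cell list, also had an unadjusted p under 0.05. Differences were lower for 5 of 5 Leydig genes with a median of -0.43 and for 7 of 10 germ cell genes with a median of -0.20, and higher for 14 of 15 endothelial genes with a median of 0.21 and for 6 of 6 erythroid genes with a median of 0.35. Differences of one sign without a call were thus not limited to the macrophage markers. Of 11 Sertoli genes 1 was called lower, Cst9, at -1.58 (limma adjusted p = 0.0271). The part of cell composition in these profiles was not tested.

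**Figure D4:**
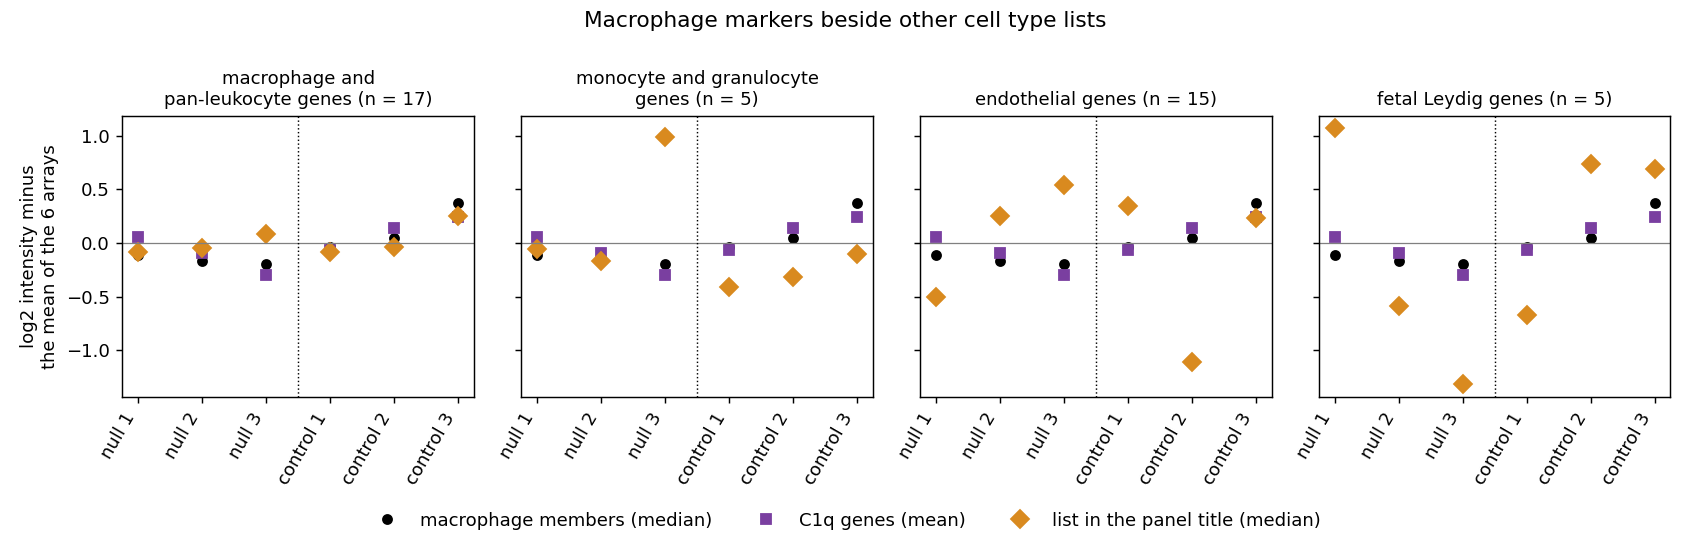
Median centred log2 level of 4 gene lists (diamonds) in each array, beside the median of the 10 macrophage markers (circles) and the mean of the C1q genes (squares); null arrays are left of the dotted line and control arrays right. Endothelial and Leydig levels vary by more than the macrophage markers do, and monocyte and granulocyte genes are highest in null replicate 3 at 0.989.

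The genes most like the mean macrophage profile were named by a fixed rule, the 8 with the highest Pearson r over the 6 arrays among 3833 annotated probe sets with an SD of at least 0.3. They were Rims2 and Syt1, of synaptic vesicle release, Cyb561, Rbbp4, a histone-binding protein, Sult1a1, Col23a1, a membrane collagen, Fam163a and Plek, a protein kinase C substrate of platelets and leukocytes. Their r values were 0.95 to 0.98, and 29 of the probe sets had an r above 0.9. All 8 were highest in control replicate 3, which the rule favours because the mean profile is highest there, at 0.346. Cyb561, for example, gave 72.8, 74.7 and 77.3 in null replicates 1, 2 and 3, against 80.6, 121 and 263 in control replicates 1, 2 and 3. Plek is the leukocyte gene among them, at 26.5, 25.8 and 26.0 in null replicates 1, 2 and 3, against 31.8, 28 and 46.6 in control replicates 1, 2 and 3. Its groups did not overlap, as in the mean profile that it was chosen to match, and the log2 difference was -0.41 (limma adjusted p = 0.773).

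Null replicate 2 and control replicate 3 are the only arrays whose descriptions share a leading number, the meaning of which the labels do not state. Between them, 9 of 10 macrophage markers were lower in the null array, with a median log2 difference of -0.55. This contrast has 1 array on each side and rests on control replicate 3, the array highest for most markers.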

How the data were processed

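The authors deposited linear intensities, made with GCRMA per the submitters' processing notes, which name no version. Its background correction and summary over probes bear most on folds between dim values. Per the labels' protocols, 100 ng of RNA was amplified and biotin-labelled with a NuGen Ovation kit. Detection calls were not used here. Of 45101 probe sets, GEO's platform annotation gave 34958 a single symbol, 932 several and 9211 none, and those with several were not named.

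Intensities were taken to log2. Probe sets with a mean of at least 4 were fitted in limma 3.58.1 (R 4.3.3), with group as the only term, an intensity trend in eBayes and Benjamini-Hochberg adjustment over all 22082. Tests were two-sided, with calls at an adjusted p under 0.05 and 7.91 total degrees of freedom. The fit was tested on simulated data. Lists count the brightest tested probe set per gene. Members and lists were chosen with earlier results of these data known. Genes named were all members, Dmrt1, some fixed by name (Csf1, Il34, Cx3cl1, Spi1, Ptprc, Cd68, H2-Aa and Cd74), up to 4 genes per list with an unadjusted p under 0.05 or else those with the smallest p, and the 8 most like the mean profile; other list genes were chosen after their values were seen. Between 2 arrays, 301 to 451 values were equal, which sets each apart as its own array. Alternatives were other filters, quantile or median scaling, 16 added, other variance models, array weights, a replicate block, other choices of probe set and leaving out each array. The labels do not state that replicate numbers pair the samples, and no pairing was used. Deviations of same-numbered arrays correlated at -0.587, -0.339 and 0.145, which cannot settle whether they were paired.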

Additional observations from a re-analysis of the deposited data

How the results depend on the processing

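No alternative called a macrophage marker, a count of 0 in all 17. The median member difference stayed below 0, at -0.317 to -0.157 with single arrays left out and -0.366 to -0.148 otherwise. The signs of Mrc1, Adgre1, Cx3cr1, Fcer1g, Pf4 and the C1q genes held in every alternative that tested them, with limma adjusted p of 0.375 or more. With single arrays left out, Csf1r ranged from -0.38 to 0.09 and Tyrobp from -0.21 to 0.24, and array weights gave -0.41 and -0.37. The values above 0 were 0.05 for Csf1r without null replicate 1 and 0.086 without control replicate 3, and for Tyrobp 0.06 when either null replicate 2 or 3 was left out and 0.24 when control replicate 3 was. Markers at an unadjusted limma p under 0.05, 2 of 14 probe sets, were 1 with no filter, 1 with a filter at a mean of 6, 1 with the replicate block, 1 without probe sets ending in _s_at, _x_at or _a_at, 3 without the intensity trend, 5 with array weights, and 1 to 2 with single arrays left out. The share of all probe sets at that p in each setting is not given here. A change in these counts therefore cannot be read as a change particular to the markers. Genes without overlap, 3 of 10, were 1 with the filter at 6, which removed Adgre1, Cx3cr1, C1qa and C1qc. They were 2 with the mean over the probe sets of a gene, which did not test Cx3cr1. Without the _s_at, _x_at and _a_at types, which removed Adgre1, they were also 2. With single arrays left out they were 3 to 6, where fewer arrays must separate and 8.02% to 10.5% of all genes were lower without overlap. The 6, without null replicate 1, were 5 lower and 1 higher. The share of all genes higher without overlap with single arrays left out is not given here. Neither is the share of all genes without overlap in the other settings, so those counts have no background beside them. Over the whole table limma called 6 probe sets, against 1 without the intensity trend, 0 with the replicate block, 3 without the _s_at, _x_at and _a_at types, and 0 to 5 with single arrays left out, with 0 without control replicate 3. The replicate block changed no call of a macrophage marker. As far as the labels state, same-numbered arrays share only a number. Of the null arrays, 0 of 3 correlated best with the control of their own number, which does not settle pairing. With 16 added, which weighs on dim probe sets, Adgre1 was -0.28, Cx3cr1 -0.19 and C1qa -0.19.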

Other observations

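Granulocyte genes, a different branch of the myeloid lineage, followed patterns of their own, and these values were chosen after they were seen. The primary granule genes of early neutrophil precursors were high in null replicate 1 and control replicate 2. Mpo, myeloperoxidase, gave 122, 19.4 and 56.0 in null replicates 1, 2 and 3, against 51.4, 144 and 33.8 in control replicates 1, 2 and 3. Prtn3, proteinase 3, gave 42.4, 14.6 and 23.7 in null replicates 1, 2 and 3, against 16.8, 37.5 and 13.2 in control replicates 1, 2 and 3. Ctsg, cathepsin G, lay below the filter with 18.3, 3.87 and 4.59 in null replicates 1, 2 and 3, against 4.10, 19.0 and 4.42 in control replicates 1, 2 and 3. Elane, neutrophil elastase, had the same arrays highest, at 15.8 in null replicate 1 and 14.2 in control replicate 2. Null replicate 1 and control replicate 2 were also the arrays with the lowest endothelial levels.

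Genes of mature neutrophils were highest in another array. S100a9, a calcium-binding protein of neutrophils and monocytes, gave 347, 767 and 2200 in null replicates 1, 2 and 3, against 470, 438 and 600 in control replicates 1, 2 and 3. S100a8, its partner, gave 35.5, 65.9 and 310 in null replicates 1, 2 and 3, against 66.4, 43.9 and 77.7 in control replicates 1, 2 and 3. Ngp, a secondary granule protein below the filter, reached 59.9 in null replicate 3 and 19.8 or less elsewhere. Pf4 was also highest in null replicate 3, while the C1q genes were lowest there. Lyz2, lysozyme of macrophages and neutrophils, was highest in control replicate 3, with 95.4, 76.4 and 88.9 in null replicates 1, 2 and 3, against 58.7, 61.1 and 151 in control replicates 1, 2 and 3. None of the tested genes among these was called between the groups by limma.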
